A study of Mus musculus with 12 samples.

Results

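miR-101a and miR-101b, the mouse forms of miR-101, were 2 of the 595 mouse miRNAs printed on the arrays of this study and 2 of the 212 tested in liver. Their probes were found by name: a spot was taken when its probe name, split at each slash, held exactly mmu-miR-101a or mmu-miR-101b. Each miRNA had 1 probe, printed as 4 spots on every array. Both were chosen by their liver over reference ratios on these same arrays, so those ratios are given as a description, with no test.

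The liver RNA came from male B6C3F1 mice, described as adult, with an age of 27 to 30 days in the labels. The BaP group (6 samples) had received benzo(a)pyrene, a combustion product that hepatic cytochrome P450 enzymes convert to metabolites that bind DNA, at 150 mg/kg a day for 3 days. The vehicle group (6 samples) had received corn oil alone on the same days. In both groups the median lobe of the liver was taken 4 h after the last dose, and the collection at 24 h that the study's design also names was not analysed here. Each of the 12 arrays held the RNA of 1 liver sample, labelled with Hy5, against a Hy3-labelled reference pooled from 10 mouse tissues. Every ratio below is liver over reference on a log2 scale, which is opposite in sign to the authors' deposited value table. No array had the dyes exchanged, so each ratio also holds the dye bias of its probe. Which animal gave which array is not stated, so the p-values below reflect the variation among these samples, which may be partly technical.

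miRNAs are short RNAs that guide Argonaute proteins to partly complementary sites in messenger RNAs and lower their translation and stability. Target choice depends mainly on the seed, bases 2 to 8 counted from the 5′ end. miR-101 is abundant in liver, is known to repress the histone methyltransferase gene Ezh2 and is often reduced in human hepatocellular carcinoma.

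The mature and precursor sequences are shown because the miRNAs come from separate loci and yet share most of their letters, which bears on what the probes could tell apart. All 4 miRNAs looked up were matched in RefSeq (build GRCm38.p6), from which the sequences are taken. Capitals mark bases 2 to 8 of each mature form as annotated.
miR-101a: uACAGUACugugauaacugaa
miR-101b: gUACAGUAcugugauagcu
miR-101c: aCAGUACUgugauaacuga
miR-144: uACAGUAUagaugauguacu
miR-101a lay at chr4:101346957-101346977 on the minus strand and miR-101b at chr19:29135338-29135356 on the plus strand. The Mir101b gene lay within Rcl1, between Ak3 and Jak2, and the Mir101a gene lay within the transcript E130102H24Rik, between Jak1 and Ak4. Aligned, miR-101a and miR-101b shared a run of 15 bases and were identical at 17 of 18 positions. The difference was A16G, counted from the 5′ end of miR-101a. The annotated miR-101b began 1 base before the shared run, so the seeds differed as annotated, and neither seed was found in another of the 1679 mature entries. In the precursors, where capitals mark the mature form, both runs were preceded by a G.
Mir101a precursor: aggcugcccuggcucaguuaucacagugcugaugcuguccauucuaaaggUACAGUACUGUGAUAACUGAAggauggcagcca
Mir101b precursor: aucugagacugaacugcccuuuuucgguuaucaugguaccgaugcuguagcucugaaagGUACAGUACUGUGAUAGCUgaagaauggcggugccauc
miR-101c, at chr9:3038680-3038698 on the minus strand, lay wholly within miR-101a. A probe for miR-101a therefore may not separate miR-101c. miR-144, an erythroid miRNA at chr11:78073047-78073066 on the plus strand, shared the first 7 bases of miR-101a and first differed at C8U. The probe sequences were not used here, so cross-hybridisation between the miR-101 forms was not tested.

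In liver RNA 166 to 341 mouse miRNAs were detected above background, depending on the array, meaning that most of their spots exceeded the negative control spots of that array. The hepatocyte miRNA miR-122 had the highest ratio of the 212, with a mean of 3.85 ± 0.16 in BaP livers and 3.72 ± 0.15 in vehicle livers (SD, n = 6 each). None of the 3 brain markers (miR-124, miR-9, miR-138) and none of the 3 muscle markers (miR-1, miR-133a, miR-206) was above background on enough arrays to be tested. The array vehicle 5 stood apart somewhat, with a median correlation of 0.924 with the other arrays, against at least 0.953 for every other array.

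miR-101a and miR-101b were measured above background on all 12 arrays in both channels, and no spot was saturated. The net liver signal of miR-101a, in scanner units after local background subtraction, was lowest at 220, median 328 and highest at 1001 in BaP livers, against 288, 515 and 1036 in vehicle livers. For miR-101b these values were 232, 367 and 844 in BaP livers and 321, 512 and 912 in vehicle livers. The groups overlapped broadly for both miRNAs, and on every array the liver signal of either was at least 10.7 times the background threshold of that array. The net reference signal of miR-101a spanned 215 to 419 on BaP arrays and 242 to 424 on vehicle arrays, and that of miR-101b spanned 114 to 165 on BaP arrays and 134 to 349 on vehicle arrays. The probe for the passenger strand miR-101a*, the other arm of the precursor, was above background on 0 BaP arrays and 0 vehicle arrays.

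After loess normalization both miRNAs were higher in liver than in the reference pool on every array of both groups. Without normalization miR-101a was above the pool on 5 of 6 BaP arrays and 6 of 6 vehicle arrays, the exception being BaP 3, where its net signal was 220 in liver and 235 in the reference. The log2 ratio of miR-101a was 2.12, 1.16, 1.37, 1.52, 1.93 and 1.48 in BaP livers 1 to 6 (median 1.5), and its mean of 1.60 ± 0.36 (SD, n = 6) corresponds to a 3.02-fold excess over the pool. In vehicle livers 1 to 6 it was 2.14, 1.87, 1.74, 1.64, 1.22 and 1.63 (median 1.69), with a mean of 1.71 ± 0.30 (SD, n = 6), or 3.26-fold. The size of this excess depends on the scaling: it was 1.76-fold in BaP livers and 1.79-fold in vehicle livers with median centring, and 1.49-fold in BaP livers and 1.62-fold in vehicle livers with no normalization. The ranges of the groups nearly coincided, the highest array of each being BaP 1 and vehicle 1 and the lowest BaP 2 and vehicle 5.

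The log2 ratio of miR-101b was 2.99, 1.74, 2.0, 2.38, 2.79 and 2.14 in BaP livers 1 to 6 (median 2.26), with a mean of 2.34 ± 0.48 (SD, n = 6), or 5.05-fold. In vehicle livers it was 3.04, 2.69, 2.43, 1.78, 2.30 and 2.46 (median 2.44), with a mean of 2.45 ± 0.42 (SD, n = 6), or 5.46-fold. With median centring the excess was 2.97-fold in BaP livers and 2.99-fold in vehicle livers, and with no normalization 2.51-fold in BaP livers and 2.71-fold in vehicle livers. BaP 1 and vehicle 1 were again the highest, and the lowest arrays were BaP 2 and vehicle 4. Taking the median of the 4 spots in place of their mean left miR-101a at 1.60 ± 0.36 in BaP livers and 1.70 ± 0.30 in vehicle livers, and put miR-101b at 2.35 ± 0.46 in BaP livers and 2.57 ± 0.26 in vehicle livers (SD, n = 6 each).

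**Figure D1:**
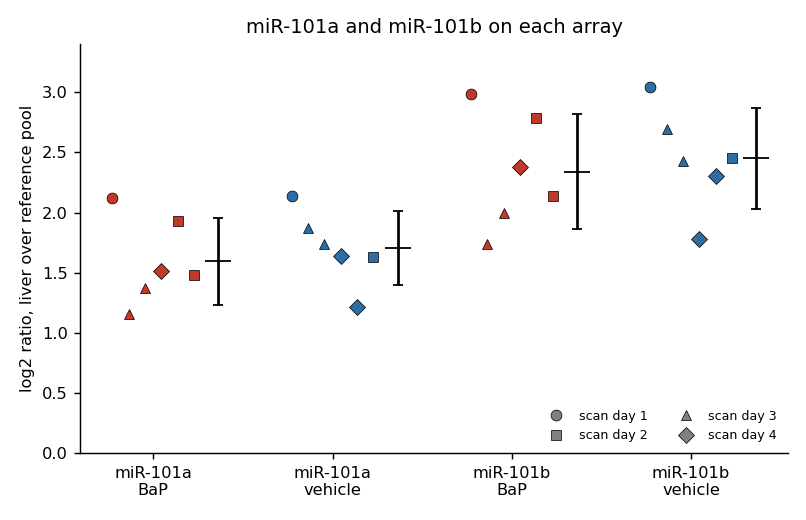
Log2 ratio of liver over the reference pool for miR-101a and miR-101b, with 1 point per array (6 BaP in red, 6 vehicle in blue) and the mean with its SD beside each group. The groups overlap for both miRNAs, and the arrays of scan day 1 (circles) are the highest of each group.

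Ordered by mean ratio among the 212 tested miRNAs, miR-101b was 6th and miR-101a 16th in BaP livers and in vehicle livers alike. A mean at least 2-fold over the pool with all 6 arrays above it was found for 21 of 212 miRNAs in BaP livers (9.91%) and 23 in vehicle livers (10.8%), both miR-101 forms among them. miR-101a fell short of 2-fold in both groups with median centring and with no normalization, and miR-101b did not. Since these ratios chose the pair, nothing is read from its place in the order. In the order of vehicle means, the neighbours of miR-101b above it were miR-192 (2.87 ± 0.36 in BaP livers, 2.89 ± 0.22 in vehicle livers) and miR-194 (2.64 ± 0.26 in BaP livers, 2.63 ± 0.20 in vehicle livers), which are made from shared primary transcripts and are abundant in liver and intestine. Below it came miR-184 (2.01 ± 0.85 in BaP livers, 2.38 ± 0.34 in vehicle livers) and miR-487b (2.23 ± 0.18 in BaP livers, 2.36 ± 0.16 in vehicle livers; SD, n = 6 each). In vehicle livers the means of miR-194, miR-184 and miR-487b lay within 1 SD of miR-101b, and miR-192 lay 0.44 above it, just beyond the SD of 0.42. In BaP livers miR-192 was 3rd and miR-184 8th.

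In the same vehicle order, the neighbours of miR-101a above it were miR-667 (1.74 ± 0.24 in BaP livers, 1.81 ± 0.10 in vehicle livers) and miR-582-3p (1.77 ± 0.35 in BaP livers, 1.79 ± 0.28 in vehicle livers). Below it came miR-148a (1.44 ± 0.23 in BaP livers, 1.58 ± 0.21 in vehicle livers), a hepatocyte-rich miRNA, and miR-691 (1.44 ± 0.14 in BaP livers, 1.36 ± 0.27 in vehicle livers; SD, n = 6 each). In vehicle livers miR-667, miR-582-3p and miR-148a lay within 1 SD of miR-101a, while miR-691 lay 0.34 below it, just beyond the SD of 0.30. In BaP livers miR-582-3p was 12th and miR-667 14th.

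Neither miRNA differed between BaP and vehicle livers beyond the spread between arrays. The difference of miR-101a, BaP minus vehicle, was -0.11 on the log2 scale with a 95% interval of -0.48 to 0.26 (0.927-fold, 0.715 to 1.20; limma, SE 0.17, adjusted p = 0.992; exact permutation p = 0.574, two-sided). That of miR-101b was -0.11 with an interval of -0.61 to 0.39 (0.925-fold, 0.655 to 1.31; limma, SE 0.23, adjusted p = 0.992; exact permutation p = 0.660, two-sided). For each miRNA, 4 of 6 BaP arrays lay below the vehicle mean. Without vehicle 5, the array that stood apart, the differences were -0.21 for miR-101a and -0.14 for miR-101b (limma adjusted p = 0.990 for both), and without vehicle 4 that of miR-101b was -0.25 (limma adjusted p = 0.993). Without BaP 2 they were -0.02 for miR-101a and 0.0081 for miR-101b (limma adjusted p = 0.990 for both), and without vehicle 1 that of miR-101b was 0.0061 (limma adjusted p = 0.997). limma called 0 of 212 miRNAs after Benjamini-Hochberg adjustment (0%), with 2 of 212 at an unadjusted p under 0.05 (0.943%), and the exact permutation test called 0 with 3 unadjusted. Those fold limits surround the estimates and are not the smallest changes that 6 arrays a group could detect. At this spread an unadjusted limma p of 0.05 needs a difference of 0.37 for miR-101a or 0.50 for miR-101b, either way. Adjustment over the 212 miRNAs asks for more. A p-value above the threshold does not show that the levels were equal. The offset used in background correction also shrinks changes: at these signals a doubling of the net liver signal would show as 1.82-fold to 1.95-fold. A halving would show as a fall of 1.69-fold to 1.91-fold.

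Estimates lay below 0 for 86 of the 212 miRNAs (40.6%), the median over all 212 being 0.02. Relative to that median, miR-101a lay lower in BaP livers under all 9 scalings compared, and miR-101b under all except the scanner software's own processed signals, where it lay 0.04 above the median. The scalings reuse the same arrays and so are not repeated evidence. How many of the 212 miRNAs stayed below the median under all of them was not counted. In bulk liver, fewer cells of a type and less of the miRNA per cell cannot be told apart.

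**Figure D2:**
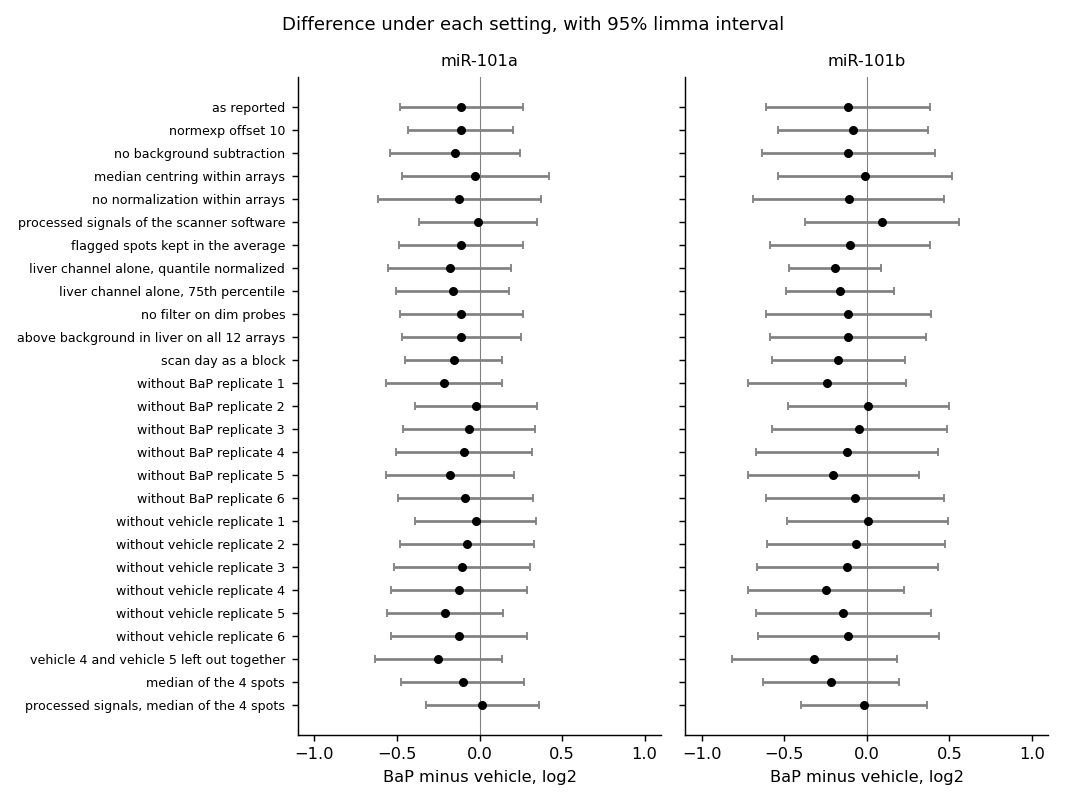
BaP minus vehicle difference in log2 ratio of miR-101a and miR-101b (points) with 95% limma intervals (bars), as reported and under each alternative setting. Every interval spans 0, and the estimates run from -0.25 to 0.02 for miR-101a and from -0.32 to 0.09 for miR-101b.

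The arrays were scanned on 4 days, each with both groups, and the BaP and vehicle arrays of a day were close on days 1 and 2 and far apart on day 3. For miR-101a the difference was -0.02 on day 1 (1 BaP and 1 vehicle array), 0.07 on day 2 (2 and 1), -0.54 on day 3 (2 and 2) and 0.09 on day 4 (1 and 2). For miR-101b it was -0.06 on day 1, 0.0068 on day 2, -0.69 on day 3 and 0.34 on day 4. Taken over the median of spots, the day 4 difference of miR-101b was -0.05, and the differences of either miRNA on days 1, 2 and 4 ran from -0.05 to 0.12. On day 3 both BaP arrays lay below both vehicle arrays for both miRNAs, the BaP values being 1.16 and 1.37 against vehicle values of 1.87 and 1.74 for miR-101a, and 1.74 and 2.0 against 2.69 and 2.43 for miR-101b. Of the 212 miRNAs, 47 were separated in that direction on day 3 (22.2%). With scan day as a block the differences were -0.16 for miR-101a (limma adjusted p = 0.828) and -0.17 for miR-101b (limma adjusted p = 0.873). Among the 212 miRNAs, 18 were lower in BaP livers within all 4 days (8.49%), and neither miR-101 form was among them.

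Day means differed more than group means, but each rests on fewer arrays than a group mean, which by itself widens their spread. For miR-101a they were 2.13, 1.68, 1.53 and 1.46 on days 1 to 4, and for miR-101b 3.01, 2.46, 2.21 and 2.15. The part of scan day in the spread was not tested.

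Both miRNAs varied more between arrays than most. The SD within groups was 0.33 for miR-101a, the 18th highest of 212, and 0.45 for miR-101b, the 10th highest, against a median of 0.16 over all tested miRNAs and 0.16 for miR-122. The 4 spots of miR-101a on an array differed with a pooled SD of 0.05, far below its SD between arrays. For miR-101b the pooled SD of spots was 0.48, with the highest single value, 1.59, on vehicle 4. There 3 of the miR-101b spots had log2 ratios of 2.51, 2.61 and 2.61, and the other had -0.61. The odd spot had a net reference signal of 954, against 154, 134 and 156 in the others, and a net liver signal of 348, against 596, 569 and 647.

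The scanner software had not marked that spot as an outlier. It was the only one of 9157 unmarked spots of the tested miRNAs (0.0109%) that lay more than 2 log2 units from the median of the other spots of its probe. Taking the median of spots put miR-101b on vehicle 4 at 2.56, a shift of 0.78, while the next largest shift was 0.09 on BaP 2. With that median the SD within groups of miR-101b was 0.37 (14th of 212) and the difference between BaP and vehicle livers was -0.22, with an interval of -0.63 to 0.20 (limma adjusted p = 0.999; exact permutation p = 0.335). The use of the median was chosen after the spots had been seen.

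**Figure D3:**
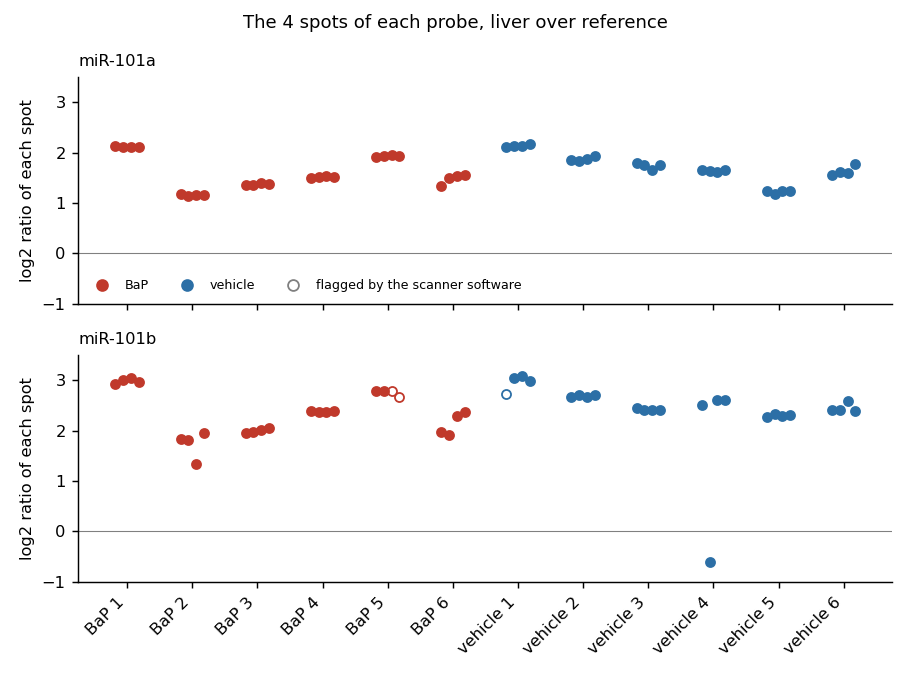
Log2 ratio of each of the 4 spots of miR-101a (top) and miR-101b (bottom) on the 6 BaP arrays (red) and 6 vehicle arrays (blue), with spots marked as outliers by the scanner software drawn as empty circles. The miR-101a spots of an array lie close together, the miR-101b spots are wider on BaP 2, BaP 6 and vehicle 1, and 1 miR-101b spot on vehicle 4 lies at -0.61.

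**Figure D4:**
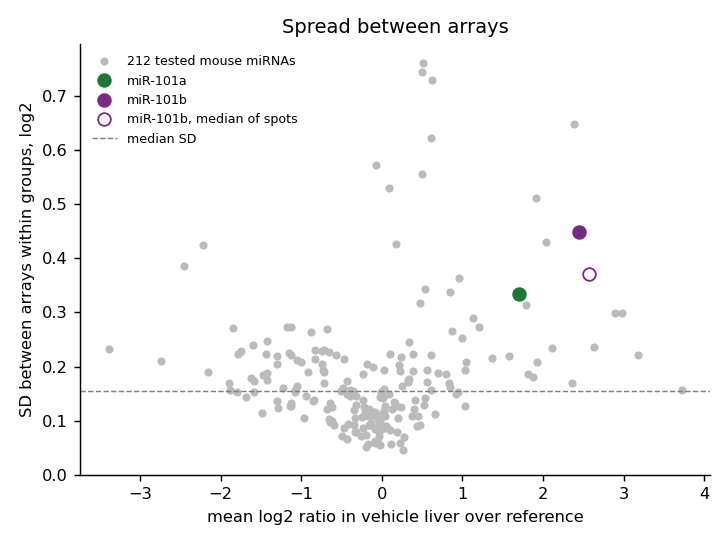
SD of the log2 ratio between arrays within groups against the mean ratio in vehicle liver for the 212 tested miRNAs (grey), with miR-101a (green) and miR-101b (purple) marked. Both lie above the median SD of 0.16 (dashed line), and miR-101b falls to 0.37 when the median of spots is used (open circle).

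miR-101a and miR-101b varied together across arrays. Over all 12 arrays the log2 ratios correlated with Pearson's r = 0.84 (permutation p = 0.00085, 0.00198 adjusted over the 12 correlations computed) and Spearman's rho = 0.86 (permutation p = 0.00068, 0.00163 adjusted). Among BaP arrays r was 0.99 (exact permutation p = 0.00139, the smallest that 720 pairings can give) and among vehicle arrays 0.65 (exact permutation p = 0.133). Without the 2 arrays farthest from the median of miR-101a, BaP 1 and vehicle 1, r was 0.71 (permutation p = 0.0224, 0.0244 adjusted). With each scan day centred on its own mean r was 0.67 (permutation p = 0.0189, 0.0227 adjusted), and in the liver channel alone it was 0.91 (permutation p = 9e-05, 0.00027 adjusted). Centred values were shuffled freely across days although centring ties the values of a day together, so the p-value with centring is likely too small.

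The lower value among vehicle arrays was not recomputed within that group with single arrays left out. Without vehicle 4, r over the other 11 arrays of both groups was 0.94 (permutation p = 5e-05, 2e-04 adjusted). Without vehicle 5 it was 0.90 (permutation p = 0.00023). With the median of spots, r was 0.93 over all 12 arrays (permutation p = 2e-05), 0.98 among BaP arrays (exact permutation p = 0.00278), 0.89 among vehicle arrays (exact permutation p = 0.0153) and 0.95 with scan days centred (permutation p = 1e-05, the smallest the resamples can give). The p-value with scan days centred is again likely too small. Both probes share arrays, labelling and normalization, and their targets are near-identical, so the points are not independent of how they were measured.

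On each array the ratio of miR-101b exceeded that of miR-101a. The gap averaged 0.74 ± 0.13 on BaP arrays (0.58 to 0.87) and 0.74 ± 0.32 on vehicle arrays (0.14 to 1.09; SD, n = 6 each), with the lowest value on vehicle 4. The mean gaps of the groups differed by -0.0021 (exact permutation p = 0.985). That value rests on vehicle 4: without it the difference was -0.12 (exact permutation p = 0.193), and with the median of spots it was -0.11, the gap being 0.75 ± 0.13 on BaP arrays and 0.87 ± 0.13 on vehicle arrays (SD, n = 6 each; exact permutation p = 0.154). Each probe has its own dye bias, so the gap compares ratios over the pool and not amounts of the miRNAs.

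**Figure D5:**
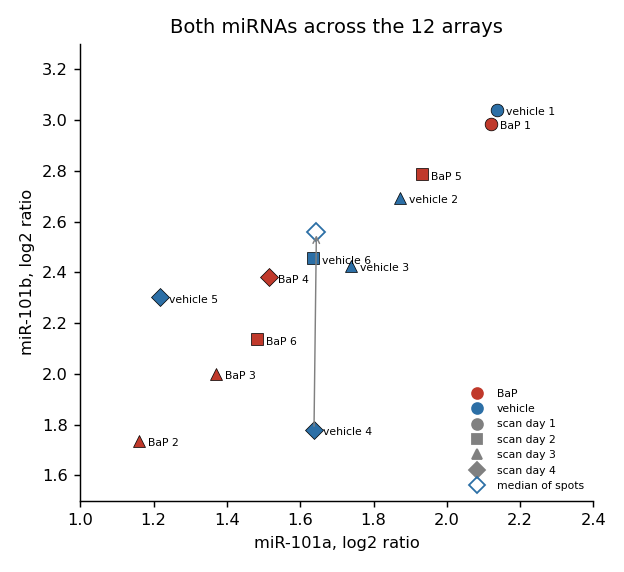
Log2 ratio of miR-101b against that of miR-101a on the 12 arrays, BaP in red and vehicle in blue, with the scan day given by the marker. The points rise together (r = 0.84). The excess of miR-101b over miR-101a is smallest on vehicle 4, whose miR-101b moves to 2.56 with the median of spots (open marker), and largest on vehicle 5.

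Of the other 211 tested miRNAs, those whose ratios followed miR-101a most closely over the 12 arrays, by Pearson's r, were miR-29c (0.95) and miR-106b (0.95), followed by miR-207 (0.92), miR-144 (0.92) and miR-503* (0.91). miR-29c is known to repress collagen genes in fibrosis, and miR-106b belongs to a paralogue of the miR-17-92 cluster. For miR-101b they were miR-32 (0.87), miR-101a (0.84), miR-29c (0.82), miR-144 (0.82) and miR-193 (0.78). These values, and those below with scan days centred, include the odd miR-101b spot on vehicle 4. For miR-101a, miR-101b came 13th of 211, and 3rd with the median of spots or without vehicle 4. The points share arrays and normalization, and the median r over all 211 was 0.27 for miR-101a and 0.28 for miR-101b, so these values are a description. With each scan day centred on its mean, r was 0.89 to 0.91 for the 5 named with miR-101a, and 0.54 to 0.76 for the 5 named with miR-101b.

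In the liver channel alone miR-106b (0.80), miR-144 (0.75) and miR-29c (0.72) still followed miR-101a, whereas miR-503* (0.37) and miR-207 (0.14) did so far less. For miR-122 r was 0.06 with miR-101a and 0.07 with miR-101b by ratio, and 0.57 and 0.56 in the liver channel alone. By ratio the hepatocyte markers miR-192 (0.84 with miR-101a, 0.75 with miR-101b) and miR-194 (0.78 and 0.74) followed the pair more closely. In the liver channel alone r was 0.45 and 0.60 for miR-192, and 0.33 and 0.17 for miR-194. Of the endothelial markers, miR-126-5p had 0.82 and 0.63 by ratio, and miR-126-3p 0.28 and 0.25. miR-144, which differs from miR-101a in most bases after the first 7, had ratios of -0.26 ± 0.60 in BaP livers and -0.07 ± 0.54 in vehicle livers (SD, n = 6 each), so that unlike the miR-101 forms it averaged below the pool.

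miR-144 is also one of 5 blood-cell markers examined, with miR-451, miR-142-3p, miR-150 and miR-223. Across arrays miR-101a correlated with miR-451 (0.73), miR-142-3p (0.69) and miR-223 (0.17), and had a negative r with miR-150 (-0.45). miR-150 was above background in liver on only 10 arrays, with an SD of 0.05 in BaP livers and 0.75 in vehicle livers. Its r with miR-101a in the liver channel alone was 0.02. For miR-101b, r by ratio was 0.82 with miR-144, 0.67 with miR-451, 0.49 with miR-142-3p, 0.21 with miR-223 and -0.07 with miR-150. With scan days centred, r with miR-101a was 0.89 for miR-144, 0.67 for miR-223, 0.44 for miR-451, 0.37 for miR-142-3p and -0.37 for miR-150. All 5 markers were tested, 1 being higher and 4 lower in BaP livers with 0 called. Their summed liver signal spanned 2363 to 4395 on BaP arrays and 2629 to 6705 on vehicle arrays. This sum, and the sums below, used liver signals quantile normalized between arrays, with the background correction offset included for each marker. They are therefore not net signals, and being linear they follow mainly the brightest marker of each list. Mean net liver signal over the 12 arrays was 20876 for miR-122 against 1541 for miR-192, and 2648 for miR-451 against 205 for miR-144. It was 1983 for miR-126-3p against 209 for miR-126-5p, and 433 for miR-143 against 63 for miR-145. The part of blood cells in the spread of miR-101a and miR-101b was not tested. The summed hepatocyte markers (miR-122, miR-192, miR-194) spanned 15399 to 30264 on BaP arrays and 19746 to 30261 on vehicle arrays, with 2 of 3 higher and 1 lower in BaP livers. Endothelial markers (miR-126-3p and miR-126-5p) summed to 1998 to 2439 on BaP arrays and 2048 to 2583 on vehicle arrays, with 1 higher and 1 lower. The 4 mesenchymal markers (miR-143, miR-145, miR-199a-3p, miR-214) summed to 678 to 1195 on BaP arrays and 597 to 891 on vehicle arrays, all 4 higher in BaP livers by estimate and 0 called.

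Among 13 miRNAs listed as liver-enriched, 12 were on the array and 11 were tested, miR-101a and miR-101b included. Of the 11, 4 had estimates higher and 7 lower in BaP livers, 0 were called, and the median difference was -0.10 against 0.02 over all 212 miRNAs. The lower ones besides the miR-101 pair were miR-455 (-0.20), miR-193 (-0.15), miR-148a (-0.14), miR-365 (-0.10) and miR-192 (-0.03). The higher ones were miR-22 (0.13), miR-122 (0.13), miR-802 (0.10) and miR-194 (0.0041). The miR-101 estimates of -0.11 are part of this list and count toward its median of -0.10, so nothing is read from their nearness to it. miR-193b was above background on too few arrays to be tested.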

How the data were processed

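Linear spot intensities were produced by the authors using Agilent Feature Extraction 9.5.3.1, as the submitters' processing notes state. The deposited mean and local background intensities are not normalized, and the processed signals, per the file headers, are background-subtracted and dye-normalized. The authors' deposited value table, on a log2 scale, held no value for either miR-101 form. In R 4.3.3 with limma 3.58.1, normexp (offset 50) removed background and loess normalized each array's ratios, control and outlier-marked spots having weight 0. Unmarked spots of a probe were averaged. Spots counted as above background if their net signal was over the negative control median by 2.6 median absolute deviations. The 212 mouse miRNAs that passed in liver on 3 or more arrays of either group were fitted with lmFit and eBayes and adjusted by Benjamini-Hochberg (threshold 0.05). Permutation tests were two-sided. The fit was also run on simulated data with known changes, built from the means and spread of these ratios. miRNAs named are the miR-101 pair, miR-144, miR-122, the passenger strand, the 5 most alike and the 2 neighbours on each side in ratio, the liver-enriched list and the cell type markers. The members and lists were chosen with earlier results of these data known. The number of arrays limits the precision, and depth does not apply.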

Additional observations from a re-analysis of the deposited data

Results flagged for a closer look

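Single arrays stood apart in 2 of the 16 groups of values examined for miR-101a and miR-101b. The limit used would mark about 1 in 20 independent groups of normally distributed values. These groups reuse the same arrays and probes, so the count is not set against that rate. The net reference signal of miR-101b on vehicle 4 was 349, against 134 to 184 on the other vehicle arrays, a gap of 0.768 of the whole range, beyond Dixon's limit for 6 samples. That is the array on which 1 of the 4 miR-101b spots had a net reference signal of 954. On BaP 1 the net reference signal of miR-101a reached 419, while the 5 further BaP arrays spanned 215 to 260, a gap of 0.779 of the range. BaP 1 also had the highest net liver signal of miR-101a among BaP arrays, at 1001, and shared scan day 1 with vehicle 1, where the liver signal was 1036.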

How the results depend on the processing

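No alternative brought miR-101a or miR-101b past the threshold. Over 27 alternatives each, limma's adjusted p ran from 0.828 to 0.999 for miR-101a and from 0.873 to 0.999 for miR-101b, and 0 miRNAs were called under all 28 alternatives run for that count. The estimate for miR-101b turned positive with the scanner software's processed signals (0.094), without BaP 2 (0.0081) and without vehicle 1 (0.0061), and that for miR-101a with processed signals and the median of spots together (0.018). The cause was not tested. Leaving out 1 array at a time gave -0.21 to -0.02 for miR-101a and -0.25 to 0.0081 for miR-101b. It gave ratios of 1.49 to 1.68 for miR-101a and 2.21 to 2.46 for miR-101b in BaP livers, and 1.62 to 1.80 and 2.33 to 2.58 in vehicle livers. Without vehicle 4 and vehicle 5, the differences were -0.25 for miR-101a and -0.32 for miR-101b. Median centring put the ratios at 0.82 in BaP and 0.84 in vehicle livers for miR-101a, and 1.57 and 1.58 for miR-101b. No normalization put them at 0.58 and 0.70 for miR-101a, and 1.33 and 1.44 for miR-101b. The median over all 212 miRNAs moved to 0.08 with median centring, and the share lower in BaP livers ran from 17.0% with median centring to 58.0% with no normalization. The correlation of the pair was 0.53 with processed signals (permutation p = 0.0793), 0.80 with those signals and the median of spots (permutation p = 0.00196), and 0.80 to 0.94 with 1 array left out. The authors' value table gave 0 calls, 7 miRNAs at an unadjusted p under 0.05 and no value for the pair. No paired analysis was possible because replicate numbers follow accession order and pair nothing. Unadjusted counts under 0.05 ran from 0 to 10 of the miRNAs tested over all settings. Fewer than 6 arrays a day limit the differences within scan days. The use of the median of spots and the joint removal of vehicle 4 and vehicle 5 were chosen after seeing the data.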
